A study of Mus musculus with 4 samples.

Results

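The vacuolar proton pump (V-ATPase) and the genes that work with it in acid secretion were followed in 4 cultures grown from mouse bone marrow. The set holds 30 genes of 22903 with a named probe: 10 genes for subunits of the membrane sector V0, 11 for subunits of the ATP-hydrolysing sector V1, 2 for accessory proteins, 5 for acid-base and chloride transport and 2 for vesicle traffic. The rule for membership names the genes and uses no measured value, although the set was drawn up with earlier results of these data known. Probes were found through the RefSeq accession the array gives for each of them. All 30 members had a probe, 42 probes in all, and 12 members had 2 probes.

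The cultures were LysM-St18flox osteoclasts, wild-type osteoclasts, LysM-St18flox macrophages and wild-type macrophages, with 1 array for each. Macrophages were bone marrow cells kept for 4 days with M-CSF, the growth factor of this lineage, at 25 ng/ml. Osteoclasts, the cells that resorb bone, were such macrophages kept 3 days longer with M-CSF at 25 ng/ml and RANKL, the cytokine that drives osteoclast formation, at 50 ng/ml, so RANKL and time in culture cannot be told apart. By convention the name LysM-St18flox denotes loxP sites around St18, a zinc finger transcription factor gene, together with Cre recombinase made from the lysozyme M locus, which is active in myeloid cells. Whether the wild-type mice carried either allele, and the age, sex and number of mice, are not stated in the labels.

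An osteoclast seals a patch of bone and acidifies it through its ruffled border, a membrane made by the fusion of lysosome-related vesicles. Carbonic anhydrase makes the protons and bicarbonate, the V-ATPase pumps the protons out, a chloride transporter balances their charge, and an anion exchanger on the opposite membrane removes the bicarbonate. Every cell uses V-ATPase to acidify lysosomes, and several subunits exist as isoforms, of which some are ubiquitous and others are rich in osteoclasts, kidney or nerve. Inherited loss of Tcirg1, Clcn7, Ostm1, Car2, Snx10 or Plekhm1 function is known to cause osteopetrosis, a disease of dense, unresorbed bone, in humans.

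Promoter windows of the members are shown first, because lysosomal genes as a class are known for the E-box CACGTG. The MiT-TFE transcription factors (Mitf, Tfeb, Tfe3, Tfec) bind it. Of 20 measured pump subunit and accessory genes, 17 were above 0 for osteoclasts over macrophages in LysM-St18flox (48.8% of all genes). In wild-type cells 16 were (50.2%). At least 2-fold higher were 10 (10.9%) in LysM-St18flox and 2 (5.7%) in wild-type cells. Of the 30 members, 23 had an entry in the RefSeq promoter table of build GRCm38.p6, with 32 windows in all, each of 300 bases from 250 before to 50 after a transcript start. The members without an entry were Atp6v0a2, Atp6v0d2, Atp6v1b2, Atp6v1c1, Atp6v1g1, Atp6v1h and Car2. The palindrome CACGTG was in 5 of the 32 windows (15.6%), those of Atp6v0b, Atp6v0d1, Atp6v0e, Atp6v1a and Clcn7, and in 7.15% of all 32851 windows. The longer palindrome TCACGTGA, which contains the first, was in 4 of the 32 (12.5%) and in 0.974% of all windows. A decamer that extends TCACGTGA by a G before and a C after was also searched. It was in 0 of the 32 member windows and in 0.326% of all windows. With so low a share, 32 windows cannot show whether the members have fewer. The heptamer TGANTCA, read on both strands, was in 6.25% of the member windows and 7.81% of all. Below are the 4 windows with the longer E-box, then those of Slc9b2, a gene much higher in osteoclasts, and of Atp6v0a1, the subunit gene that was lower in them. Capitals mark CACGTG, TCACGTGA or TGANTCA, and each window is given 5′ to 3′ on the strand of its gene.
Atp6v0d1 (chr8:105566015-105566314, minus strand, GRCm38.p6): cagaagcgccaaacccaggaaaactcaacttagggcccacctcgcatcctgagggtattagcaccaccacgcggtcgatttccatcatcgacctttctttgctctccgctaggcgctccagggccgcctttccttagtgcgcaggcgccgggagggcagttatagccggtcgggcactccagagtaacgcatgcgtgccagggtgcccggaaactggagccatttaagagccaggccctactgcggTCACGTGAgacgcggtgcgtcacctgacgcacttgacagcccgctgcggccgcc
Atp6v0e (chr17:26676146-26676445, plus strand, GRCm38.p6): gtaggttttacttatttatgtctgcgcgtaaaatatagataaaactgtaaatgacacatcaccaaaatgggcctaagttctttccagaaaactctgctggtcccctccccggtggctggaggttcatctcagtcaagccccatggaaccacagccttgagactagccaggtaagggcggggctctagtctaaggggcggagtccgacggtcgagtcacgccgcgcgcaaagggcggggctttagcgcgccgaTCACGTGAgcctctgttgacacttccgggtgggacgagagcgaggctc
Atp6v1a (chr16:44139210-44139509, minus strand, GRCm38.p6): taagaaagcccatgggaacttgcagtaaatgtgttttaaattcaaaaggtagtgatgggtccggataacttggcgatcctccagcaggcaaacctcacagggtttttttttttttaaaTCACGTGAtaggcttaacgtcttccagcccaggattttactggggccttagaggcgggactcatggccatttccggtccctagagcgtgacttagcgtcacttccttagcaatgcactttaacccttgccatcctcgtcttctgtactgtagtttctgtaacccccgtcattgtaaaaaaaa
Clcn7 (chr17:25133141-25133440, plus strand, GRCm38.p6): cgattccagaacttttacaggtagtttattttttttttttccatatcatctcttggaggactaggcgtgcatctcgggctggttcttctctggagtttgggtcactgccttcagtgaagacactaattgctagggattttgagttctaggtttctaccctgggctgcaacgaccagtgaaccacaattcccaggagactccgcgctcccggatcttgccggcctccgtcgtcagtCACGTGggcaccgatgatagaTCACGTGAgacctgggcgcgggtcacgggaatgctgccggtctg
Slc9b2 (chr3:135307450-135307749, plus strand, GRCm38.p6): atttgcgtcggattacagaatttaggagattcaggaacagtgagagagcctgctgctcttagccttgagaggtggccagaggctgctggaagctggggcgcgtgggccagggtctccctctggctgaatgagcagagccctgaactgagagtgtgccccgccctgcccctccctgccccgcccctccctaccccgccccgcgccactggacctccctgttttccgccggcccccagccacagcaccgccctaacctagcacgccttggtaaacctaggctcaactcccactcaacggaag
Atp6v0a1 (chr11:101010148-101010447, plus strand, GRCm38.p6): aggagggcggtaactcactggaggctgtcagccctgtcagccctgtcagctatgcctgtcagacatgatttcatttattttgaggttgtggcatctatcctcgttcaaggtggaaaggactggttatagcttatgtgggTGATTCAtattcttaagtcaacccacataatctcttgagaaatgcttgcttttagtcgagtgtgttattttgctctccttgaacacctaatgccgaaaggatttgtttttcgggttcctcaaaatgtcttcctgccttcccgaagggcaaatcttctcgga
Counted from the 5′ end of the window, the longer E-box began at base 247 in Atp6v0d1, 253 in Atp6v0e, 119 in Atp6v1a and 257 in Clcn7, so in 3 of the 4 genes it lay within a few bases of the transcript start. Slc9b2 held none of these motifs in this window, and Atp6v0a1 held the heptamer alone, at base 140. Among the 4 genes with the longer E-box, Clcn7 was at least 2-fold higher in osteoclasts, in LysM-St18flox alone (1.86-fold in wild-type cells). Atp6v0d1, Atp6v0e and Atp6v1a did not pass 2-fold in either genotype. A match is a run of letters and not a site shown to be bound.

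Signals are given as log2 of the processed signal relative to the 75th percentile of the array, so 0 is that percentile and 1 unit is 2-fold. They compare 1 probe between arrays and not different probes. On the 4 arrays, 59.0% to 63.2% of probe spots were well above background and no spot was saturated. With 1 array per group there was no test. Higher or lower, in a count, means a signal 2-fold or more apart on 2 arrays unless another threshold is named, which is a rule of size alone. The main counts stand beside the share of all genes that met the same rule. Comparisons cover the members whose signal exceeded background clearly on either array. Probes spotted 10 times gave a median SD of 0.045 to 0.056 (log2) for a difference between 2 arrays, which describes repeated spots and says nothing of separate cultures. Each array served in 2 of the 4 comparisons, so the comparisons are not independent.

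The culture labels were set against marker genes. All 8 osteoclast markers, among them Ctsk, Acp5 and Calcr, were well above background on both osteoclast arrays, where their summed signal was 913 times the 75th percentile in LysM-St18flox and 742 times in wild-type cells, against 8.95 in LysM-St18flox macrophages and 11.1 in wild-type macrophages. Acp5 and Ctsk, the brightest, make up most of the osteoclast sums and differed little between the osteoclast genotypes (-0.29 and 0.29, LysM-St18flox minus wild-type). However, 6 of the 8 markers were at least 2-fold higher in LysM-St18flox osteoclasts (3.8% of all genes), with a median of 1.20 over the list. The 8 macrophage markers were above background throughout, with sums of 540 and 519 in LysM-St18flox and wild-type osteoclasts, and 796 and 861 in LysM-St18flox and wild-type macrophages. Csf1r and Cd68, the brightest, make up most of these sums. At least 2-fold lower in osteoclasts than in macrophages were 5 of the 8 in LysM-St18flox (12.2% of all genes) and 2 in wild-type cells (7.32%). Past 2-fold between genotypes were Mertk, 3.16-fold higher in LysM-St18flox macrophages, and Lyz2, 2.07-fold lower in LysM-St18flox osteoclasts. The 7 neutrophil markers with a probe were detected throughout and summed to 9.76 in LysM-St18flox osteoclasts and 14.1 in wild-type osteoclasts, against 40.2 and 33.0 in LysM-St18flox and wild-type macrophages, and their part in the results was not tested. In such mixed cultures, fewer cells of a type and less RNA per cell cannot be told apart. St18 itself, by the brighter of its 2 probes, was at 1.12 in LysM-St18flox osteoclasts and 1.55 in wild-type osteoclasts, and at -1.52 in LysM-St18flox macrophages and 0.29 in wild-type macrophages. Where its probes lie relative to the floxed part is not stated in the labels, so this does not check the deletion.

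Of the 30 members, 25 were well above background on all 4 arrays. Atp6v0a4, Atp6v1b1 and Atp6v1c2, isoforms known mainly from kidney and other epithelia, were not well above background on any array. Car2 was detected in osteoclasts of both genotypes and in neither macrophage culture, and Atp6v0e2 on every array except that of wild-type osteoclasts. The plot of signals by array shows each member.

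**Figure D1:**
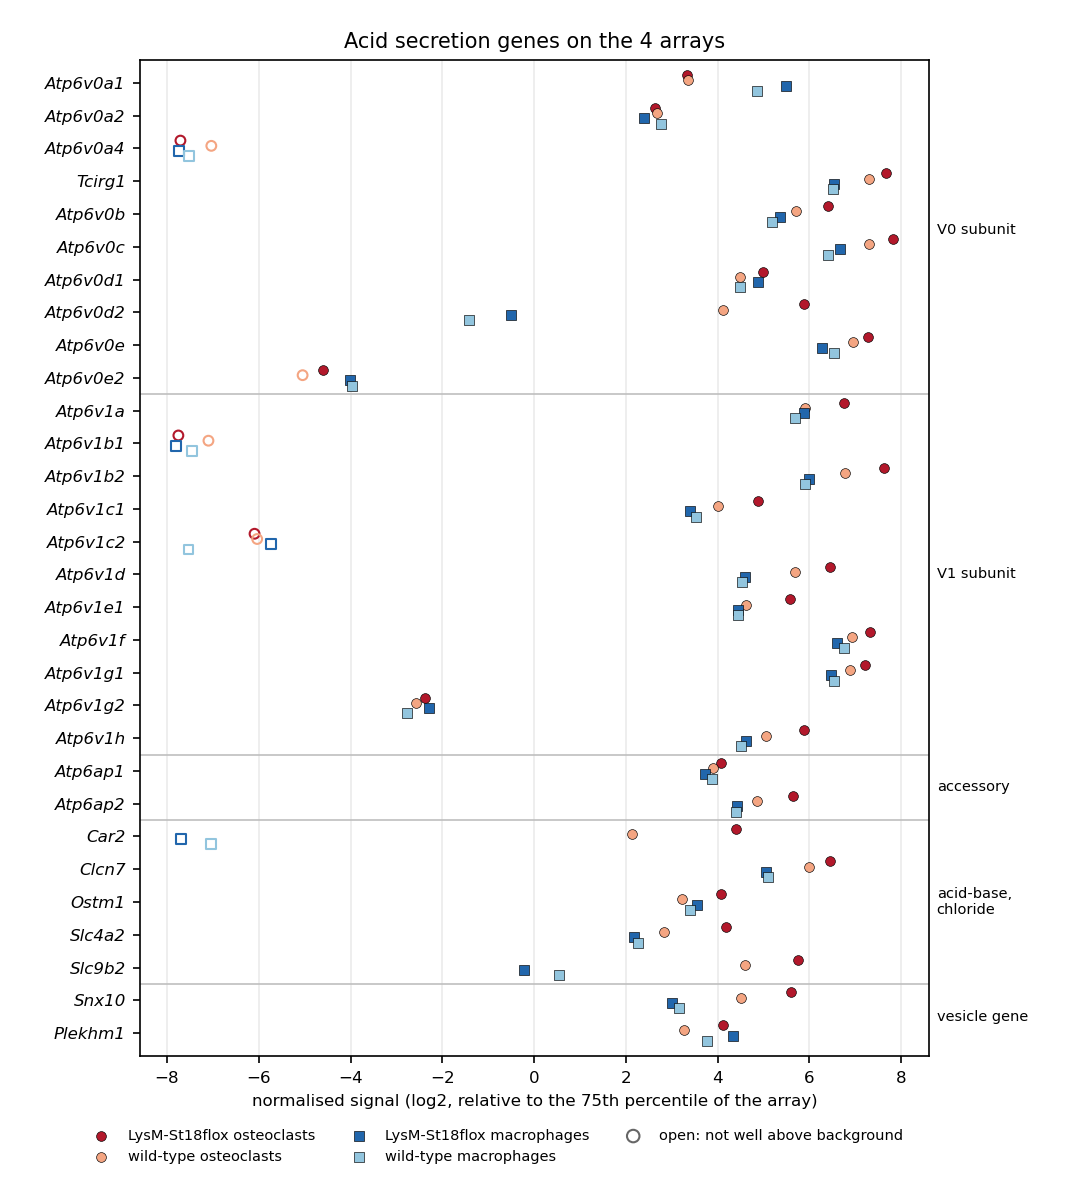
Normalised signal (log2, x axis) of each of the 30 genes (rows, grouped by role) on the 4 arrays, 1 point per array, with open symbols for signals not well above background. Car2, Atp6v0d2 and Slc9b2 separate osteoclasts (circles) from macrophages (squares) by far more than the other genes, Atp6v0a1 is lower in osteoclasts, and the points of different rows come from different probes, so their levels are not comparable.

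Osteoclasts were compared with macrophages of the same genotype. In LysM-St18flox, 15 of 27 measured members were at least 2-fold higher in osteoclasts, as were 10.9% of all genes measured, and 1 was at least 2-fold lower, as were 12.2% of all genes. In the wild type, 5 of 27 were higher, beside 5.7% of all genes, and 1 was lower, beside 7.32%. The 5 members higher in wild-type cells, Atp6v0d2, Atp6v1d, Car2, Slc9b2 and Snx10, were all higher in LysM-St18flox too, and a further 10 passed 2-fold in LysM-St18flox alone. The share of all genes that passed in LysM-St18flox alone was not counted. Of the 10, Atp6v0c (1.87-fold), Clcn7 (1.86-fold) and Atp6v1b2 (1.84-fold) fell just short in wild-type cells. Within 10% of the threshold, in either direction, were 5 members in LysM-St18flox and 4 in wild-type cells. The median difference over the measured members was 1.12 in LysM-St18flox and 0.44 in wild-type cells, against -0.02 and 0.00 over all genes measured. Differences of less than 2-fold made up much of the wild-type pattern: at 1.5-fold, 19 members were higher in LysM-St18flox (20.3% of all genes) and 2 lower (22.1%), and 9 were higher in wild-type cells (12.9%) and 2 lower (14.4%).

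**Figure D2:**
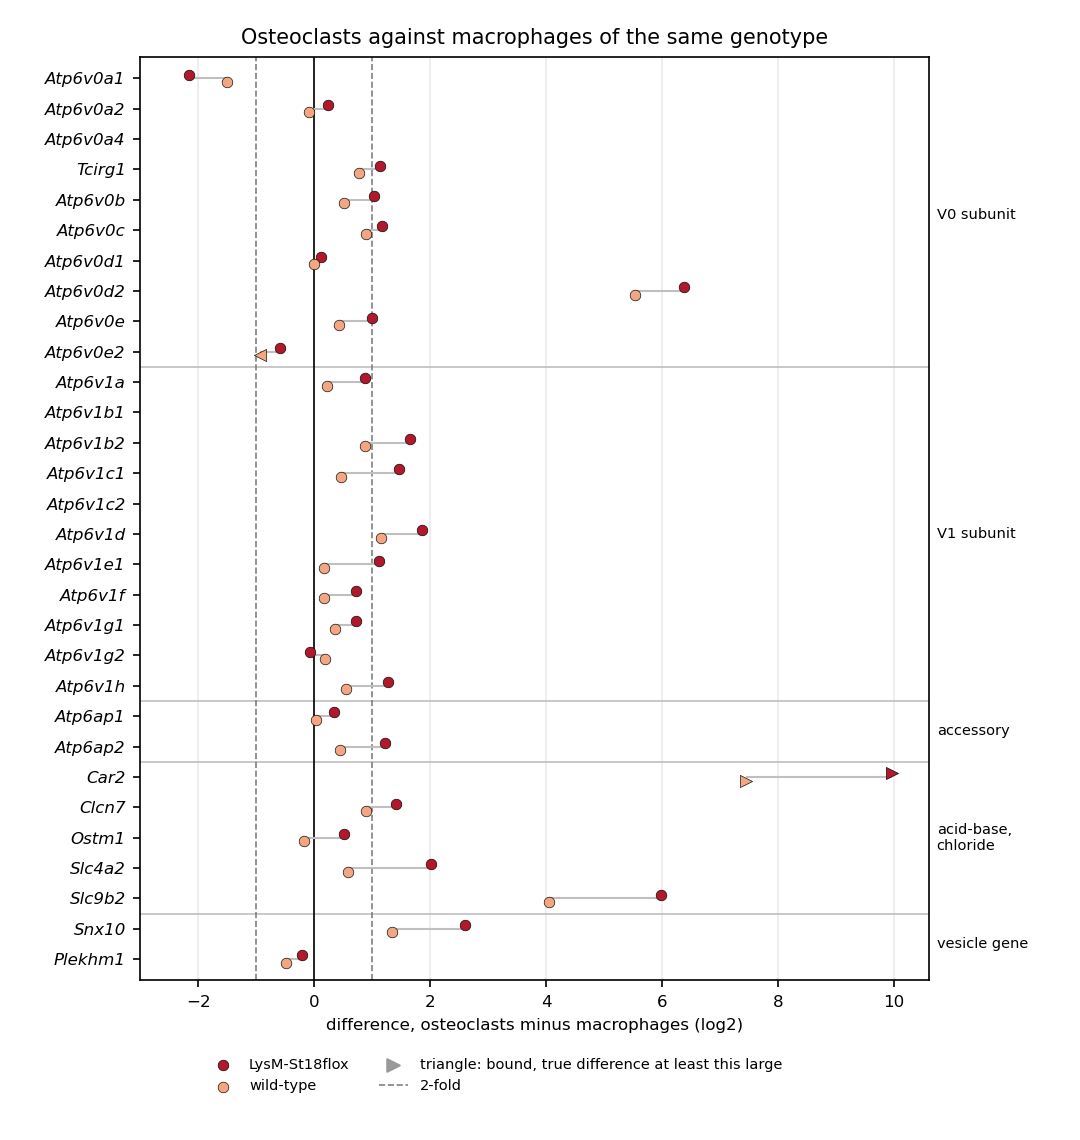
Difference of osteoclasts minus macrophages (log2, x axis) for each gene (rows) in LysM-St18flox (dark red) and the wild type (light red), with triangles for bounds, a grey line joining the genotypes and dashed lines at 2-fold. In 23 of the 25 genes detected on every array the LysM-St18flox point lies to the right of the wild-type point, and Atp6v0a1 and Atp6v1g2 are the exceptions.

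The a subunit of V0 spans the membrane and carries the path of the protons, and its isoforms direct the pump to different membranes. Tcirg1, the a3 isoform of the ruffled border, had signals of 7.67 in LysM-St18flox osteoclasts and 7.29 in wild-type osteoclasts, against 6.53 in LysM-St18flox macrophages and 6.51 in wild-type macrophages. Both osteoclast arrays were thus above both macrophage arrays, by 2.20-fold in LysM-St18flox and 1.71-fold in wild-type cells. Atp6v0a1, the ubiquitous a1 isoform, went the other way, at 3.32 and 3.35 in LysM-St18flox and wild-type osteoclasts, and at 5.48 and 4.86 in LysM-St18flox and wild-type macrophages. It was 4.46-fold lower in osteoclasts in LysM-St18flox and 2.84-fold lower in wild-type cells, and it was the one member past 2-fold downward. Its second probe, for another RefSeq transcript, was also lower in osteoclasts, by -1.49 in LysM-St18flox and -0.97 in wild-type cells. Atp6v0a2, the a2 isoform of the Golgi and endosomes, stayed within a range of 0.36 on the log2 scale, at 2.64 and 2.67 in LysM-St18flox and wild-type osteoclasts, and 2.40 and 2.76 in LysM-St18flox and wild-type macrophages. Atp6v0a4, the kidney isoform, was between -7.74 and -7.03 on all 4 arrays and not well above background.

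The d subunit joins the membrane sector to the central stalk. Atp6v0d2, the form rich in osteoclasts and also needed for the fusion of their precursors in mice, was at 5.88 in LysM-St18flox osteoclasts and 4.11 in wild-type osteoclasts, against -0.50 in LysM-St18flox macrophages and -1.43 in wild-type macrophages. It was 83.0-fold higher in osteoclasts in LysM-St18flox and 46.5-fold higher in wild-type cells, and its second probe gave differences of 7.63 and 6.16. The ubiquitous partner Atp6v0d1 had signals of 4.99 and 4.48 in LysM-St18flox and wild-type osteoclasts, and of 4.88 and 4.49 in LysM-St18flox and wild-type macrophages. Its differences, 0.11 in LysM-St18flox and 0.00 in wild-type cells, were among the smallest of the set.

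The proteolipid ring of V0, which carries the protons as it turns, is made of the products of Atp6v0c and Atp6v0b. Atp6v0c was at 7.82 and 7.29 in LysM-St18flox and wild-type osteoclasts, and at 6.66 and 6.39 in LysM-St18flox and wild-type macrophages. Atp6v0b was at 6.39 and 5.70 in LysM-St18flox and wild-type osteoclasts, and at 5.36 and 5.19 in LysM-St18flox and wild-type macrophages. Both were thus higher in osteoclasts, by 2.24-fold and 2.05-fold in LysM-St18flox and by 1.87-fold and 1.42-fold in wild-type cells. The gene table names 2 pseudogenes of Atp6v0c, and whether its probes also bind their transcripts is not known here. The small e subunit gene Atp6v0e lay just short of 2-fold in LysM-St18flox, with a difference of 1.0, and at 0.42 in wild-type cells. Its signals were 7.27 and 6.95 in LysM-St18flox and wild-type osteoclasts, against 6.27 and 6.53 in LysM-St18flox and wild-type macrophages. The e2 form Atp6v0e2, known best from brain, was dim, at -4.59 in LysM-St18flox osteoclasts, not well above background in wild-type osteoclasts, and at -4.00 and -3.96 in LysM-St18flox and wild-type macrophages.

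The V1 sector hydrolyses ATP on the cytoplasmic side. The 8 ubiquitous V1 genes were all above 0 for osteoclasts over macrophages, as were 48.8% of all genes in LysM-St18flox and 50.2% in wild-type cells. The differences were 0.72 to 1.85 in LysM-St18flox, where 5 passed 2-fold (10.9% of all genes). In wild-type cells they were 0.16 to 1.15, and 1 passed 2-fold (5.7%). Over the 6 ubiquitous V0 genes the range was -2.16 to 1.16 in LysM-St18flox and -1.51 to 0.90 in wild-type cells. Atp6v1d, a subunit of the central rotor, had the largest differences of the V1 genes by their brighter probes, 3.61-fold in LysM-St18flox and 2.22-fold in wild-type cells. Its signal was 6.46 in LysM-St18flox osteoclasts and 5.69 in wild-type osteoclasts, against 4.60 and 4.54 in LysM-St18flox and wild-type macrophages. Of the catalytic hexamer, Atp6v1b2, the ubiquitous B subunit, was at 7.63 and 6.78 in LysM-St18flox and wild-type osteoclasts, and at 5.98 and 5.90 in LysM-St18flox and wild-type macrophages. The second probe of Atp6v1b2 gave 1.87 in LysM-St18flox and 1.23 in wild-type cells, above the 1.85 and 1.15 of Atp6v1d. The kidney counterpart Atp6v1b1 was not well above background on any array, between -7.80 and -7.10. Atp6v1a, the A subunit that holds the catalytic site, differed by 0.88 in LysM-St18flox and 0.21 in wild-type cells.

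The stators and the regulatory H subunit of V1 showed a similar order of the arrays. Atp6v1c1, the ubiquitous C subunit, was at 4.87 and 4.00 in LysM-St18flox and wild-type osteoclasts, and at 3.40 and 3.54 in LysM-St18flox and wild-type macrophages. This is 2.76-fold in LysM-St18flox and 1.38-fold in wild-type cells, while its epithelial isoform Atp6v1c2 was not well above background on any array. Atp6v1e1, a peripheral stalk subunit, was at 5.57 and 4.62 in LysM-St18flox and wild-type osteoclasts, and at 4.44 and 4.45 in LysM-St18flox and wild-type macrophages. Atp6v1h, which couples the sectors, was at 5.88 and 5.04 in LysM-St18flox and wild-type osteoclasts, and at 4.61 and 4.50 in LysM-St18flox and wild-type macrophages. Atp6v1e1 was 2.18-fold and Atp6v1h 2.40-fold higher in osteoclasts in LysM-St18flox, against 1.12-fold and 1.46-fold in wild-type cells. The rotor subunit gene Atp6v1f (0.72 in LysM-St18flox and 0.17 in wild-type cells) and the stalk subunit gene Atp6v1g1 (0.73 and 0.36) had the smallest differences of the ubiquitous V1 genes in LysM-St18flox. Atp6v1g2, the G form of neurons, was dim and nearly level, with -2.38 and -2.58 in LysM-St18flox and wild-type osteoclasts, and -2.30 and -2.77 in LysM-St18flox and wild-type macrophages.

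The accessory proteins Atp6ap1, which aids assembly of the pump, and Atp6ap2, also known as the prorenin receptor, differed in size of response. Atp6ap2 was at 5.64 and 4.85 in LysM-St18flox and wild-type osteoclasts, and at 4.42 and 4.40 in LysM-St18flox and wild-type macrophages, which is 2.33-fold in LysM-St18flox and 1.36-fold in wild-type cells. Atp6ap1 lay between 3.72 and 4.07 on all 4 arrays.

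Among the transport genes the difference between cell types was largest for Car2, the cytosolic carbonic anhydrase that supplies the protons. Its signal was 4.39 in LysM-St18flox osteoclasts and 2.13 in wild-type osteoclasts, against -7.70 in LysM-St18flox macrophages and -7.04 in wild-type macrophages, both not well above background. Set against the dimmest signal still well above background on the arrays of LysM-St18flox and wild-type macrophages, -5.56 and -5.32, Car2 was at least 994-fold higher in LysM-St18flox osteoclasts and at least 175-fold higher in wild-type osteoclasts. With normexp background correction the differences were smaller, 8.10 in LysM-St18flox and 5.18 in wild-type cells on the log2 scale, in place of 9.96 and 7.45. Car2 is also a red cell gene. Of other erythroid genes, Alas2, Hbb-bt and Klf1 were not well above background on any array. Epor was at -4.63 in LysM-St18flox osteoclasts and not well above background in wild-type osteoclasts, against -1.23 in LysM-St18flox macrophages and -3.03 in wild-type macrophages. Slc4a1 was at -5.26 in LysM-St18flox osteoclasts and -4.15 in LysM-St18flox macrophages, and not well above background in wild-type cells of either type. Both were thus higher in macrophages than in osteoclasts of LysM-St18flox, but Slc4a1 was dim where detected. The part of red cells in the Car2 signal was not tested.

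Slc9b2, a sodium-proton exchanger also called NHA2, was at 5.75 and 4.60 in LysM-St18flox and wild-type osteoclasts, and at -0.23 and 0.55 in LysM-St18flox and wild-type macrophages. It was 63.0-fold higher in osteoclasts in LysM-St18flox and 16.6-fold higher in wild-type cells, and its second probe gave 6.09 and 3.99 on the log2 scale. Slc4a2, the anion exchanger that removes bicarbonate, was at 4.18 and 2.83 in LysM-St18flox and wild-type osteoclasts, and at 2.17 and 2.25 in LysM-St18flox and wild-type macrophages, so LysM-St18flox osteoclasts stood apart from the other 3 arrays. Clcn7, the chloride-proton exchanger of lysosome and ruffled border, had signals of 6.45 and 6.0 in LysM-St18flox and wild-type osteoclasts, against 5.05 and 5.11 in LysM-St18flox and wild-type macrophages, a difference of 2.64-fold and 1.86-fold. Ostm1, the beta subunit that Clcn7 needs, did not pass 2-fold, with 4.07 and 3.21 in LysM-St18flox and wild-type osteoclasts, and 3.55 and 3.39 in LysM-St18flox and wild-type macrophages. The chloride transporter and its partner thus differed in wild-type cells, where Clcn7 was at 0.89 and Ostm1 at -0.18.

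Of the vesicle genes, Snx10, a sorting nexin of endosomes, was at 5.61 and 4.50 in LysM-St18flox and wild-type osteoclasts, and at 3.01 and 3.16 in LysM-St18flox and wild-type macrophages. It was 6.04-fold higher in osteoclasts in LysM-St18flox and 2.53-fold higher in wild-type cells, and its second probe gave 2.46 and 1.22 on the log2 scale. Plekhm1, an adaptor that ties Rab7 to lysosome fusion, was at 4.11 and 3.27 in LysM-St18flox and wild-type osteoclasts, and at 4.33 and 3.76 in LysM-St18flox and wild-type macrophages, and did not pass 2-fold in either genotype.

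LysM-St18flox cells were then compared with wild-type cells of the same type. In osteoclasts, 25 of 27 measured members were higher in LysM-St18flox in sign, as were 49.5% of all genes, and 2 lower, with a median difference of 0.77 against 0.00 over all genes. Of these, 5 passed 2-fold upward, beside 3.8% of all genes, and none passed it downward, beside 3.94%. They were Car2 (4.79-fold), Atp6v0d2 (3.41-fold), Slc4a2 (2.56-fold), Slc9b2 (2.22-fold) and Snx10 (2.16-fold), of which all except Slc4a2 had also passed 2-fold between wild-type cell types. In macrophages, none of 26 passed 2-fold in either direction, beside 3.3% of all genes upward and 2.98% downward, and the median was 0.02 with 14 members above 0, as were 48.2% of all genes, and 12 below. By the brighter probes, the largest difference upward in macrophages was that of Atp6v0d2 (0.93, but 0.15 by its second probe), and the largest downward that of Slc9b2 (-0.77). The osteoclast markers Oscar (4.94-fold), Calcr (4.28-fold) and Mmp9 (4.22-fold) were also higher in LysM-St18flox osteoclasts, within the 6 of 8 given above, and their part in the members' difference was not tested. In macrophages none of 7 measured osteoclast markers was at least 2-fold higher (3.3% of all genes) and 2 were lower (2.98%). No p-value exists for any of these counts, since no group had a second array.

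**Figure D3:**
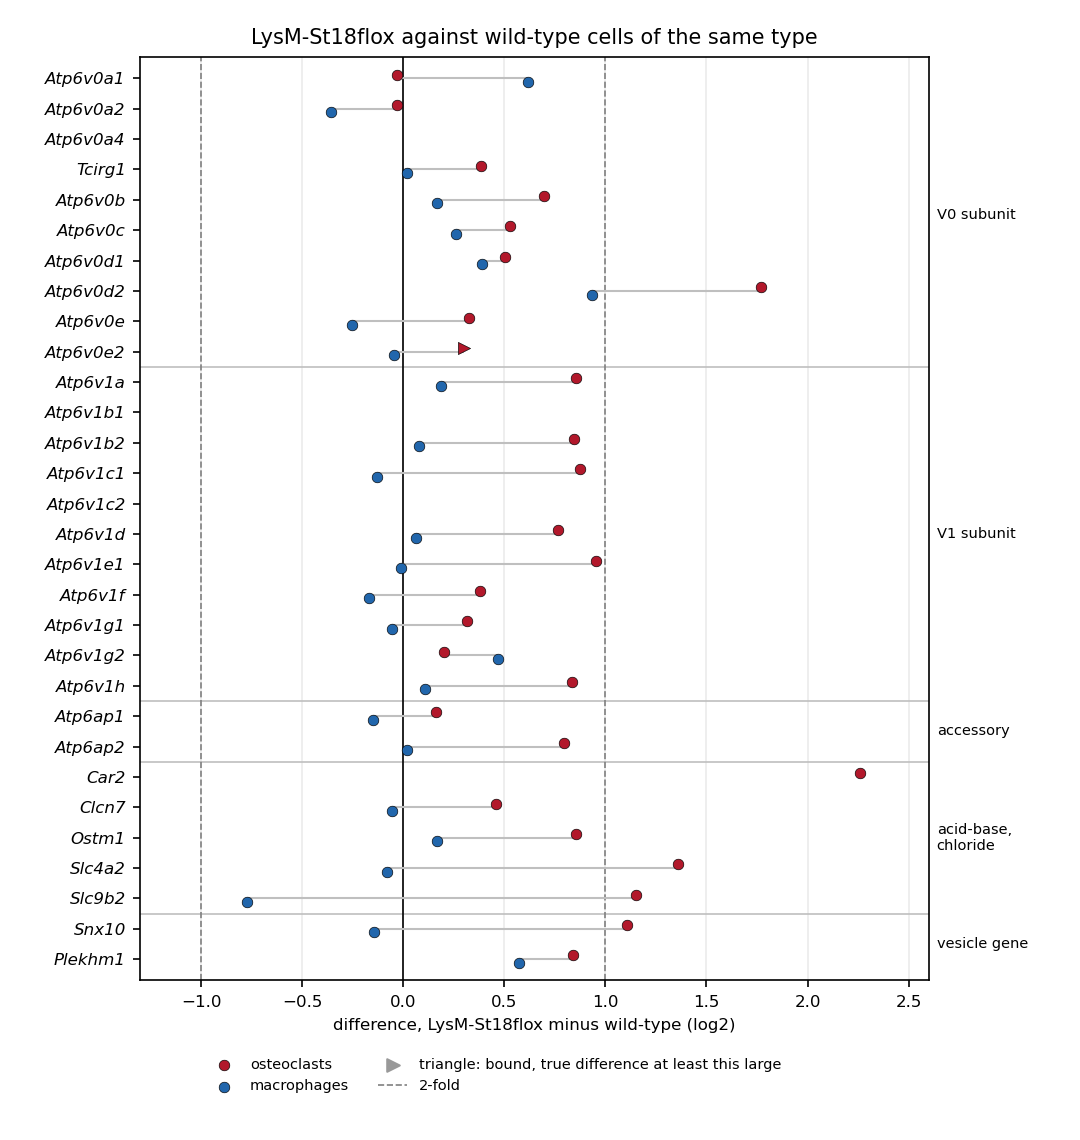
Difference of LysM-St18flox minus wild-type (log2, x axis) for each gene (rows) in osteoclasts (red) and macrophages (blue), with a triangle for a bound, grey lines joining the cell types and dashed lines at 2-fold. The osteoclast points reach from -0.03 to 2.26 and all but 2 lie above 0, whereas the macrophage points lie on both sides of 0.

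The 8 ubiquitous V1 genes were all above 0 between genotypes in osteoclasts, by 0.31 to 0.95, as were 49.5% of all genes. None passed 2-fold (3.8% of all genes were higher). In macrophages they differed by -0.17 to 0.19. Atp6v1e1 was 1.93-fold, Atp6v1c1 1.83-fold, Atp6v1a 1.81-fold, Atp6v1b2 1.80-fold and Atp6v1h 1.78-fold higher in LysM-St18flox osteoclasts. Ostm1 (1.81-fold), Plekhm1 (1.79-fold), Atp6ap2 (1.74-fold) and Atp6v1d (1.70-fold) were close to them, but the second probe of Plekhm1 went the other way (-0.48, log2). At 1.5-fold, 15 members were higher in LysM-St18flox osteoclasts (10.4% of all genes) and none was lower (12.1%), while in macrophages 2 were higher (10.1%) and 1 lower (11.2%). Tcirg1 (1.30-fold), Clcn7 (1.37-fold) and Atp6v0d1 (1.42-fold) were among those under 1.5-fold in osteoclasts, and Atp6v0a1 and Atp6v0a2 were both at -0.03 by the brighter probe, and at -0.72 and -0.40 by the second. The count past 2-fold in osteoclasts depended on the scaling. With each array centred on its median it was 14 in place of 5, and the split over all genes was 996 higher and 316 lower in place of 556 and 576. That centring moved the median of the 13671 genes detected on all arrays by 0.25. The member median stood 0.78 above theirs, a distance that is fixed in advance under any shift of whole arrays. Under alternatives that are not such shifts it was 0.72 with quantile scaling, 0.71 with the authors' table and 0.83 with normexp.

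**Figure D4:**
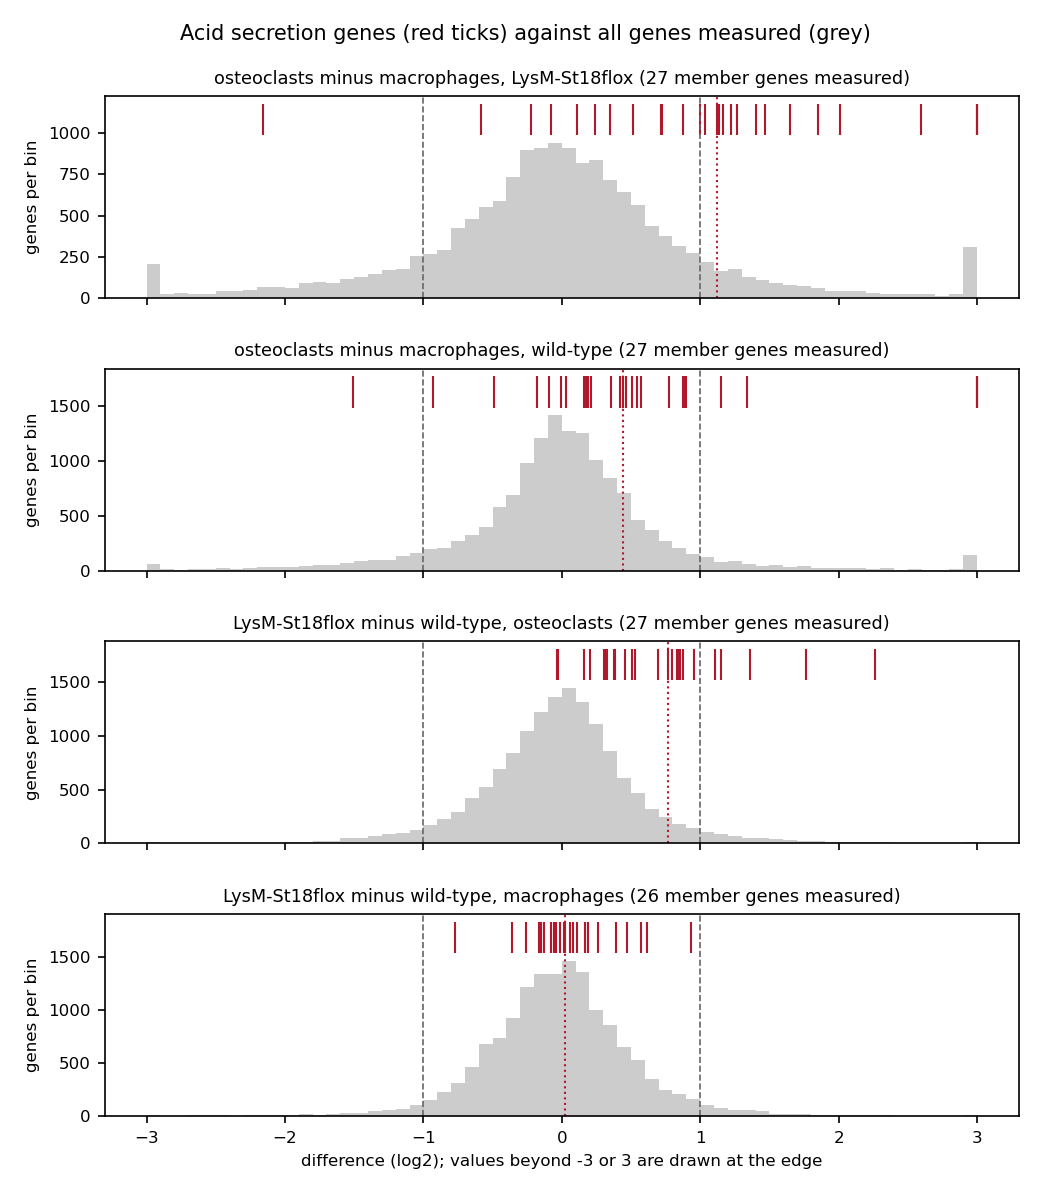
Number of genes per bin of 0.1 (grey bars) by difference (log2, x axis) in each of the 4 comparisons, with a red tick for each measured member, a dotted red line at the member median and dashed lines at 2-fold. The member median lies at 1.12, 0.44 and 0.77 in the upper 3 panels and at 0.02 in the lowest, the macrophage comparison.

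The difference between the osteoclast responses of the genotypes was taken over the 25 members well above background on all 4 arrays. The LysM-St18flox response was the higher for 23 of them, against 54.2% of all genes detected on all arrays, with a median of 0.58 against 0.04. It was at least 2-fold higher for 4 members, beside 3.2% of all genes: Slc9b2 (3.80-fold), Slc4a2 (2.71-fold), Snx10 (2.39-fold) and Atp6v1c1 (2.0-fold). The exceptions were Atp6v0a1 (-0.65), which was lower in osteoclasts of both genotypes, and Atp6v1g2 (-0.27). These values use the same 4 arrays as the comparisons above and add no independent measurement.

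For the 12 members with 2 probes, the second probe had the same sign as the first in 12 of 12 for osteoclasts over macrophages in LysM-St18flox and in 10 of 12 in wild-type cells, where Atp6v0a2 and Atp6v1g2 disagreed in sign. The median gap between probes was 0.21 and 0.24 there, and 0.31 and 0.26 for the genotype difference in osteoclasts and in macrophages. Plekhm1 was higher in LysM-St18flox with its brighter probe (0.84 in osteoclasts and 0.57 in macrophages) and lower with its dim one (-0.48 and -0.53), so its genotype difference has no settled direction. For Atp6v0a1 in macrophages the brighter probe gave 0.62 and the other -0.20, and for Atp6ap1 in osteoclasts they gave 0.16 and -0.04.

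Other genes of acid-base and chloride transport lay on both sides of 0. Of 31 genes on this list, 24 were measured in LysM-St18flox and 22 in wild-type cells, with 5 and 4 at least 2-fold higher in osteoclasts (10.9% and 5.7% of all genes), 5 and 3 at least 2-fold lower (12.2% and 7.32%), and medians of -0.05 and -0.10. Clic5, a chloride channel-like protein, was at 4.46 in LysM-St18flox and at least 2.06 in wild-type cells. The anion exchanger Slc4a3 (2.96 and 1.84) and the sodium-bicarbonate transporters Slc4a8 (3.07 and 1.04) and Slc4a7 (1.70 and 2.02) were also higher, in LysM-St18flox and the wild type in that order. Slc9b1, the neighbour in family of Slc9b2, was at 2.33 in LysM-St18flox and 0.83 in wild-type cells. The sodium-proton exchangers of endosomes and Golgi, Slc9a9 (-5.14 and -3.02) and Slc9a7 (-2.12 and -2.00), and the anion transporter gene Slc26a11 (-3.22 and -1.57) were lower. None of the MiT-TFE transcription factors passed 2-fold between cell types. Mitf was at 0.40 in both genotypes and Tfeb at -0.28 in LysM-St18flox and -0.30 in wild-type cells. In the same order, Tfe3 was at -0.75 and -0.49, and Tfec at 0.35 and 0.63. Nfatc1, the main osteoclast factor, was at 3.33 and 2.33. Other factors that may bind the E-box were not followed, and the part of any factor in the members' differences was not tested.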

How the data were processed

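Total RNA, 100 ng per sample, was labelled with Cy3 and measured on 4 one-colour arrays. The scanner files were made by the authors using version 11.0.1.1 of Agilent Feature Extraction (per the submitters' processing notes) and hold for each spot a processed intensity, with a background-subtracted signal and a spatial detrending fit recorded per the file headers, the median intensity of spot and background, and flags of other kinds. The authors also deposited log2 values for 30909 probes, made by steps the labels do not state. Its columns share 1 distribution (sorted columns differ by at most 0.000652) with a median of 9.39, are levels rather than ratios, and correlated at 0.9998 or more with their arrays.

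Spots flagged as outliers (80 to 126 per array, none of a member) were left out. The log2 processed signal was averaged over the spots of a probe, and the 75th percentile over probes (635.5 to 1159.3) was subtracted. Of 56605 probes, 32994 were named through a RefSeq table of assembly GRCm38.p6, while the headers name another build for the design. The probe with the highest mean signal stood for a gene. Where 1 of 2 arrays was not well above background, the difference is a bound, taken against the higher of that dim signal and the lowest signal that the array had well above background. Differences with a bound on the wrong side of 0 were not counted as measured. Calculations used Python 3.11.15 and limma 3.58.1 in R 4.3.3, and the calls were tested on simulated data.

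The members and lists were chosen with earlier results of these data known. Named were all 30 members and, from the other lists, those past 2-fold in any comparison, up to 8 per list, and the transcription factors. The alternatives were normexp background correction (offset 50) of the median signals, quantile scaling, median centring, the authors' table, no or a stricter filter on dim probes, the median over probes and a 1.5-fold threshold.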

Additional observations from a re-analysis of the deposited data

Results flagged for a closer look

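For 7 members the difference went one way in one group of cells and the other way in the other, by more than 2 SDs between spots in each. That SD comes from repeated spots and not from separate cultures, and with 1 array per group these differences were not tested. For the genotype difference, 6 of 25 members (24%) met this criterion, beside 18.4% of all 13671 genes detected on every array. For the difference between cell types, 1 of 25 members (4%) did, beside 8.92%. By these shares the members did not stand out from all genes. The genotype difference (LysM-St18flox minus wild-type) was above 0 in osteoclasts and below 0 in macrophages for 6 of the 7 members: Slc9b2 (1.15 and -0.77), Snx10 (1.11 and -0.15), Atp6v1c1 (0.87 and -0.13), Atp6v1f (0.38 and -0.17), Atp6v0e (0.32 and -0.26) and Atp6ap1 (0.16 and -0.15). For Ostm1 the difference of osteoclasts minus macrophages was 0.51 in LysM-St18flox and -0.18 in wild-type cells. The second probe of Slc9b2 gave 1.73 and -0.37, that of Snx10 1.12 and -0.12, and that of Atp6ap1 -0.04 and -0.26, so the opposite signs held for both probes of Slc9b2 and Snx10 and not for those of Atp6ap1.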

How the results depend on the processing

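No paired analysis was possible because each group had 1 array, and for the same reason no replicate could be left out. No member that passed 2-fold changed its direction under any alternative that measured it. The median difference in the LysM-St18flox cell types was 0.94 with quantile scaling, 0.95 with the authors' table, 1.02 without a filter on dim probes and 1.29 with median centring, in place of 1.12. In the wild type it was 0.38 with normexp and 0.38 with median centring, in place of 0.44. The genotype median in osteoclasts was 1.02 with median centring, 0.61 without a filter and 0.70 with the median over probes, in place of 0.77, and in macrophages it was 0.12 with quantile scaling and 0.13 with the authors' table, in place of 0.02. The median difference between responses was 0.51 with quantile scaling and 0.81 with median centring, in place of 0.58. Median centring raised the members higher in LysM-St18flox osteoclasts than in wild-type cells to 14, beside 6.73% of all genes. The median over probes took Atp6v1b2 past 2-fold between the wild-type cell types. Quantile scaling and the authors' table each took Tcirg1, Atp6v0b and Atp6v1e1 under 2-fold in LysM-St18flox. Each also took Atp6v1b2 past 2-fold between the osteoclast genotypes. Car2 was not counted as higher in any comparison with the authors' table, nor between cell types with the stricter filter on dim probes. Without a filter, 2 members were lower in wild-type osteoclasts than in macrophages (Atp6v0e2 added) and 1 was higher in LysM-St18flox macrophages (Atp6v1c2), both dim. At 1.5-fold the counts between cell types were 2 lower in LysM-St18flox (22.1% of all genes), and 9 higher (12.9%) and 2 lower (14.4%) in wild-type cells. Those between genotypes were 15 higher in osteoclasts (10.4%), and 2 higher (10.1%) and 1 lower (11.2%) in macrophages. Over all genes, the osteoclast genotype split was 646 higher and 393 lower with quantile scaling, 318 and 219 with normexp and 432 and 263 with the authors' table, and the LysM-St18flox split between cell types was 2204 and 1522 with median centring in place of 1702 and 1905. Dim signals (Car2 in macrophages, Atp6v0e2) limit these differences to bounds, and 25 members were in the authors' table. The cause of these changes was not tested.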

Other observations

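Genes that assemble or regulate the proton pump were also followed. Of 25 such genes 24 were measured, and in osteoclasts against macrophages none was at least 2-fold higher in either genotype, while 3 were at least 2-fold lower in LysM-St18flox and none in wild-type cells, with medians of -0.11 and -0.16. Of all genes, 10.9% and 5.7% were higher and 12.2% and 7.32% lower, so the 3 of 24 (12.5%) were near the share of all genes. They were Ncoa7 (-1.38 in LysM-St18flox and -0.74 in wild-type cells), a protein known to bind the V-ATPase, Flcn (-1.30 and -0.26), the folliculin that acts on Rag GTPases at the lysosome, and its partner Fnip2 (-1.27 and -0.80). Rragd, a Rag GTPase, was 1.18 higher in macrophages of LysM-St18flox than of the wild type, the one gene of this list past 2-fold between genotypes.

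Among 23 genes of vesicle traffic towards the ruffled border, 21 were measured, with medians of -0.27 in LysM-St18flox and -0.25 in wild-type cells. Rab27a, a GTPase of secretory lysosomes, was lower in osteoclasts by -1.77 in LysM-St18flox and -1.56 in wild-type cells. Rab3d, a GTPase of secretory vesicles known to act in bone resorption in mice, was at -1.11 and -0.96. Hook1, a protein that links cargo to microtubules, was dim, with a bound of 1.28 between the LysM-St18flox cell types and of -1.20 between the macrophages of LysM-St18flox and the wild type.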
